A study of Mus musculus with 14 samples.

Results

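miR-421 is a microRNA (miRNA) reported to repress the DNA damage kinase ATM, and it was 1 of 599 miRNA probes counted in extracellular vesicles (EVs) from mouse plasma after whole-body ionizing radiation (WBIR). It was chosen for this description by its rise over sham in these same counts, so its levels against sham are given without a test. Counts came from the NanoString nCounter mouse miRNA panel, which ligates a tag onto the miRNAs, hybridises them with color-coded reporters and counts the barcodes one at a time. The mice were female C57BL/6J animals 6 to 8 weeks of age. Animals held in a pie cage received 2 Gy or 9 Gy from a cesium irradiator, sham animals were not irradiated, and plasma EVs were pelleted 3 days later. Sham had 4 samples and each dose had 5. The labels do not say that each sample came from a separate animal, so p-values measure the spread between these samples.

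ATM is a protein kinase that is activated at DNA double-strand breaks and phosphorylates p53, CHK2 and histone H2AX, and its loss makes cells sensitive to ionizing radiation. In human cells miR-421 was reported to lower ATM by pairing with the 3′ UTR of its transcript. The gene of miR-421 lies in Ftx, a long noncoding RNA gene of the X inactivation center that also hosts miRNAs of the miR-374 family. EVs are membrane particles shed by many cell types that carry proteins and small RNAs in blood.

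In the RefSeq annotation of assembly GRCm38.p6, the Mir421 hairpin occupied chrX:103572921-103572996 on the minus strand, within Ftx, and was 76 bases long. The neighbouring Mir374b hairpin was at chrX:103573060-103573154 on the same strand, with 63 bases between them. The probe name, mmu-miR-421, gives no arm, and the arm it counts is not given in the sources used here. The hairpins are shown because they are the source of the RNA that was counted and of its nearest neighbour. Capitals in the Mir421 hairpin mark mmu-miR-421-5p, the mature arm that the RefSeq table lists, and capitals in the Mir374b hairpin mark both of its mature arms. In the line for mmu-miR-421-5p, capitals mark the seed, bases 2 to 8 from the 5′ end, through which a miRNA mainly finds its targets. The sources used here do not say whether this arm is the one reported to lower ATM.
Mir421: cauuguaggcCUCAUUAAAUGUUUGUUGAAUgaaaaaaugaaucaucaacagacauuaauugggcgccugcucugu
Mir374b: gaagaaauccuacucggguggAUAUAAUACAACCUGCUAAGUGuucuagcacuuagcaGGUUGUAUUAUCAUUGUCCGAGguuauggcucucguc
mmu-miR-421-5p: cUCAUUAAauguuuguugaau
Of the 1738 mature mouse miRNAs in that table, 0 others shared bases 2 to 7 of mmu-miR-421-5p, so no family of the same seed could be set beside that arm. mmu-miR-421-3p was not compared.

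Some properties of the whole panel bear on every value of miR-421. Total counts over the 599 miRNA probes were 4781 to 6926 for the sham samples, 8019 to 10455 for the 2 Gy samples and 11518 to 20150 for the 9 Gy samples, and the median miRNA probe stood at 5 to 9 counts in every sample. The 3 ligation positive controls, synthetic RNAs that check the joining of tags, had a geometric mean of 345 ± 223 counts for sham (SD, n = 4), against 2332 ± 485 for 2 Gy (SD, n = 5) and 2650 ± 505 for 9 Gy (SD, n = 5). On the ligation controls the sham and irradiated samples did not overlap. The 6 hybridisation positive controls, which check hybridisation and counting, averaged 1064 ± 89.6 counts for sham, 988 ± 114 for 2 Gy and 1052 ± 87.0 for 9 Gy (SD, n = 4, 5 and 5).

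miR-421 was counted 11, 10, 7 and 1 times in sham replicates 1 to 4. At 2 Gy the counts in replicates 1 to 5 were 42, 29, 35, 33 and 32. At 9 Gy they were 34, 46, 45, 33 and 41. The lowest irradiated sample, 2 Gy replicate 2, stood above the highest sham sample, sham replicate 1, and the 2 Gy and 9 Gy samples overlapped. The sham mean was 7.25 ± 4.5 counts (SD, n = 4), the 2 Gy mean 34.2 ± 4.87 (SD, n = 5) and the 9 Gy mean 39.8 ± 6.06 (SD, n = 5). Of the 176 miRNA probes with a mean of at least 10 counts over all samples, 17 (9.66%) at 2 Gy and 27 (15.3%) at 9 Gy had every count above every sham count. miR-421 was among them at both doses, and since it was chosen for its rise nothing is read from these shares. The methods give a fixed mass of RNA as the input of each assay, and from these bulk counts alone a change in the number of EVs and a change in the amount of the miRNA per EV cannot be told apart.

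**Figure D1:**
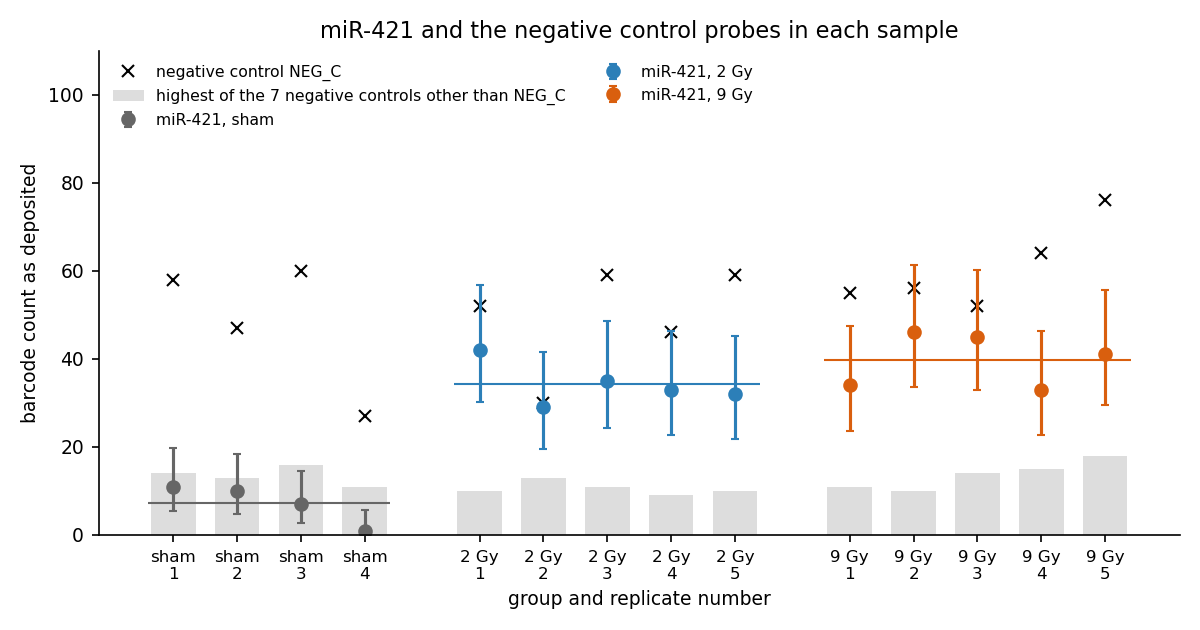
miR-421 barcode counts as deposited (vertical axis) in each sample, by group and replicate number. Points are counts, vertical bars are exact 95% Poisson intervals, horizontal lines are group means, grey bars are the highest of the 7 negative control probes other than NEG_C, and crosses are NEG_C. The 10 irradiated points lie between 29 and 46 counts, above the grey bars and below the crosses, and the 4 sham points lie between 1 and 11 counts, below the grey bars.

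The exact 95% Poisson interval was 19.4 to 41.6 counts for 2 Gy replicate 2 and 33.7 to 61.4 counts for 9 Gy replicate 2, the lowest and the highest irradiated samples. In sham it was 5.49 to 19.7 counts for replicate 1 and 0.0253 to 5.57 counts for replicate 4. These intervals cover counting error only. The lowest of the 8764 deposited values was 1, which 362 of them held, and the sources used here do not say whether a 0 was recorded as 1, so the count of 1 in sham replicate 4 may be such a floor. The variance over the mean, which is 1 for pure counting error, was 0.693 at 2 Gy, 0.922 at 9 Gy and 2.79 in sham. The higher value in sham came with the single count of replicate 4, the sample with the lowest total and the lowest ligation controls.

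As a rank among the 566 mouse miRNA probes, with 1 for the highest count, miR-421 stood near the top of the panel in the irradiated samples and lower in sham. Its ranks in sham replicates 1 to 4 were 163, 167, 268 and 526. At 2 Gy its ranks ran from 12 to 15, and at 9 Gy from 11 to 22. As a share of all miRNA counts its group means were 0.113% for sham, 0.379% for 2 Gy and 0.293% for 9 Gy, so the ratio to sham was 3.35 at 2 Gy and 2.59 at 9 Gy. The totals rose with dose, and the ratio of shares was therefore smaller than the ratio of counts, which was 4.72 at 2 Gy and 5.49 at 9 Gy.

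The 8 negative controls are probes with no target in a mouse sample, and they set the level a miRNA probe reaches without its miRNA. One of them, NEG_C, stood apart, with 27 to 60 counts in the sham samples, 30 to 59 in the 2 Gy samples and 52 to 76 in the 9 Gy samples. The other 7 averaged 7.64 ± 1.02 counts for sham (SD, n = 4), 6.97 ± 0.396 for 2 Gy (SD, n = 5) and 7.57 ± 0.782 for 9 Gy (SD, n = 5). The sham level of miR-421 was thus the level of these 7 probes. Less their mean, miR-421 stood at -0.393 ± 3.86 counts for sham (SD, n = 4), 27.2 ± 4.48 for 2 Gy (SD, n = 5) and 32.2 ± 6.13 for 9 Gy (SD, n = 5). The sham values ran from -5.29 to 3.57, on both sides of 0.

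Whether a sample counts as having detected miR-421 turned on NEG_C. Above the mean plus 2 SD of all 8 negative controls lay 1 of 14 samples, 2 Gy replicate 2, which was also the irradiated sample with the fewest miR-421 counts and the lowest NEG_C. With NEG_C left out of the limit, 10 of 10 irradiated samples and 0 of 4 sham samples lay above it. miR-421 exceeded NEG_C in 0 of 14 samples and exceeded every one of the other 7 negative controls in 10 of 10 irradiated samples and 0 of 4 sham samples. The 33 probes for miRNAs of mouse viruses gave a further reference, as no infection was part of the design. Every irradiated sample had miR-421 above all 33 of them. Viral probes could also be called against sham: mcmv-miR-M23-2 was higher at 2 Gy (log2 fold change 1.38, edgeR adjusted p = 0.00864) and at 9 Gy (1.57, edgeR adjusted p = 0.000622), and mghv-miR-M1-4 was lower at 9 Gy (-0.75, edgeR adjusted p = 0.0187). In sham replicates 1 to 4, 9, 16, 12 and 33 of the viral probes were at or above miR-421.

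Per 1000 ligation control counts, the irradiated values of miR-421 lay within the range of sham. The ratio was 17.4, 48.2, 17.5 and 7.34 in sham replicates 1 to 4, with a mean of 22.6 ± 17.7 (SD, n = 4). At 2 Gy it was 13.5, 11.8, 17.5, 15.4 and 16.5 in replicates 1 to 5, with a mean of 14.9 ± 2.32 (SD, n = 5). At 9 Gy it was 12.1, 20.6, 18.7, 14.1 and 11.8 in replicates 1 to 5, with a mean of 15.5 ± 3.97 (SD, n = 5). All 10 irradiated values lay between the lowest and the highest sham value, and the wide sham spread came with ligation controls between 136 and 634 counts in that group. The ligation controls were 6.77 times their sham mean at 2 Gy and 7.69 times at 9 Gy. Their part in the rise of miR-421 over sham cannot be told apart from irradiation in this design.

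The sham counts in that ratio were at the level of the negative controls, and with that level subtracted the order of the groups changed. Less the mean of the 7 negative controls, miR-421 per 1000 ligation counts ran from -38.8 to 7.57 in sham and from 9.12 to 17.5 in the 10 irradiated samples.

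**Figure D2:**
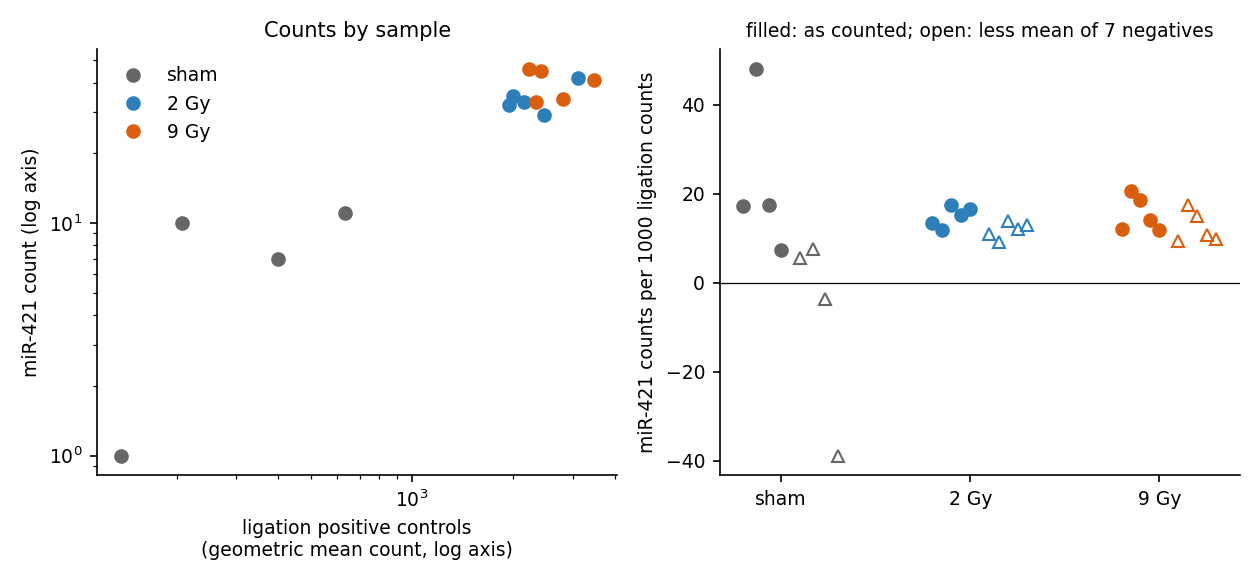
Left, miR-421 count against the geometric mean of the 3 ligation positive controls in each sample, both on log axes. Right, miR-421 per 1000 ligation counts by group on a linear axis, as counted (filled circles) and less the mean of the 7 negative controls (open triangles). The sham samples lie at 136 to 634 ligation counts, apart from the irradiated ones at 1935 to 3463, and their values on the right run from -38.8 to 48.2.

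The fold change was fitted on counts scaled by trimmed mean of M values (TMM), which sets most miRNA probes equal between samples. Scaled counts of miR-421 averaged 6.82 ± 3.85 for sham (SD, n = 4), 37.9 ± 3.57 for 2 Gy (SD, n = 5) and 35.2 ± 5.33 for 9 Gy (SD, n = 5). The fitted log2 fold change over sham was 2.38 ± 0.27 at 2 Gy (SE), the sixth largest rise among the 176 probes, and 2.27 ± 0.27 at 9 Gy (SE), the ninth largest. The median of all 176 probes was 0.05 at 2 Gy and 0.01 at 9 Gy on the same log2 scale. By edgeR's quasi-likelihood test with Benjamini-Hochberg adjustment, 26 of the 176 probes (14.8%) passed an adjusted p of 0.05 at 2 Gy, 23 higher and 3 lower, and 30 (17.0%) at 9 Gy, 28 higher and 2 lower. This split depended on the scaling: 12 of 106 calls at 2 Gy and 15 of 145 at 9 Gy were higher with total count scaling, and 2 of 169 and 2 of 167 with ligation scaling. Nothing about miR-421 is read from these calls, since the same contrasts chose it. With each sample scaled to its ligation controls instead, the log2 fold change turned negative, at -0.57 for 2 Gy and -0.52 for 9 Gy. That scaling shifts all probes of a sample alike, and the median of all 176 probes was then -3.01 and -2.92. Other scalings kept it positive, with the lowest values at 1.67 and 1.28 for scaling to the total count, where the median of all probes was -0.66 and -1.02. With the mean of all 8 negative controls subtracted from every probe, and 1 as the floor, the values were 4.30 and 4.52. Every sham count of miR-421 lay below that mean, which includes NEG_C, so its sham values were the floor itself. The size of the fold thus depended on how the sham counts, at the level of the negative controls, were treated.

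**Figure D3:**
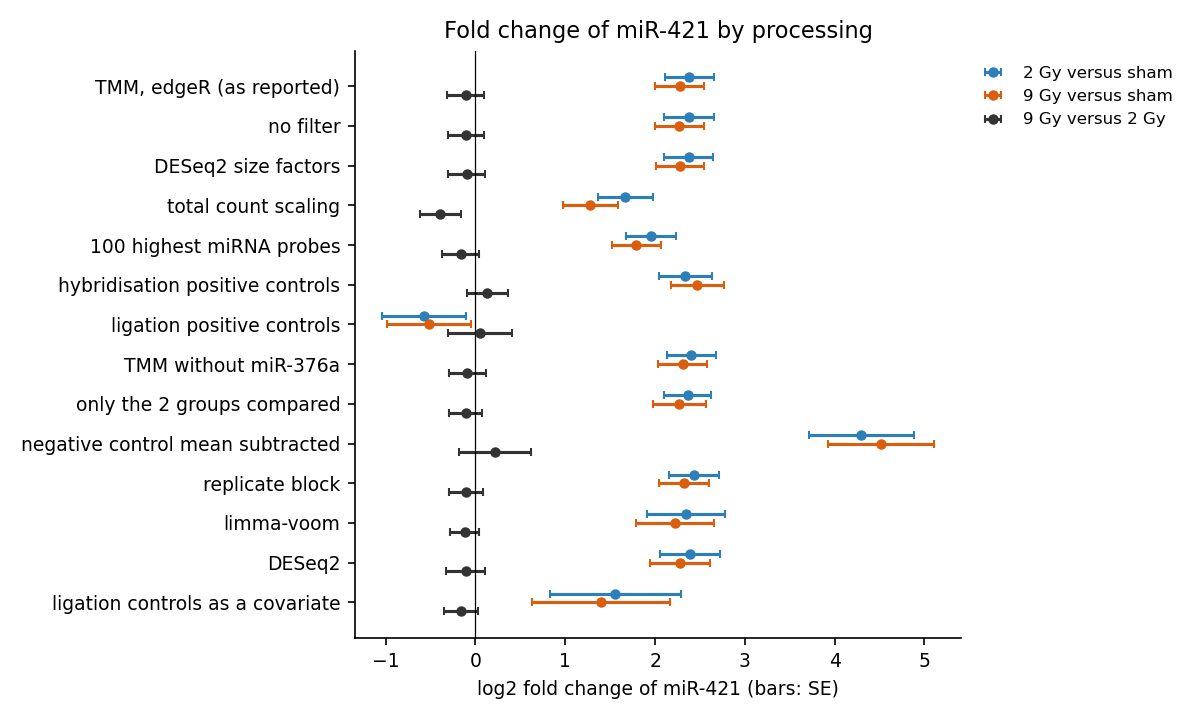
Log2 fold change of miR-421 (horizontal axis) under each processing setting (vertical axis), for 2 Gy versus sham, 9 Gy versus sham and 9 Gy versus 2 Gy, with SE bars. The sham contrasts are positive under every setting shown except scaling to the ligation positive controls, and the values of 9 Gy versus 2 Gy stay near 0, the lowest being -0.39 with total count scaling.

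The contrast between the doses did not enter the choice of miR-421, and there it was tested. miR-421 was at 35.2 scaled counts at 9 Gy and 37.9 at 2 Gy, with a log2 fold change of -0.11 ± 0.20 (SE) and an adjusted p of 0.952 by edgeR's quasi-likelihood test (unadjusted 0.600). The 95% interval of this contrast ran from -0.52 to 0.30 on the log2 scale, a range of 0.699 to 1.23 times the 2 Gy level. No probe of the 176 passed this comparison (0%), with 20 at an unadjusted p under 0.05, and limma-voom and DESeq2 called 1 each. Hybridisation scaling called 12, total count scaling 7, negative control subtraction 5 and a replicate block 3, with miR-421 in none of these. As deposited, with no scaling, the 9 Gy counts of miR-421 were higher by 0.22 on the log2 scale, a ratio of geometric means of 1.16 (exact permutation test over 252 arrangements, two-sided p = 0.135). The sign of the dose difference thus depended on the scaling, and neither value passed its test.

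Set against the ligation controls, miR-421 had nearly the same level at both doses. The mean log2 ratio to the ligation controls was higher at 9 Gy by 0.03, with SDs of 0.36 at 9 Gy and 0.23 at 2 Gy (n = 5 each), a ratio of geometric means of 1.02 (exact permutation test, two-sided p = 0.865, smallest possible 0.00794). The ligation controls themselves differed by 0.19 on the log2 scale between 9 Gy and 2 Gy (exact permutation test, two-sided p = 0.294), and NEG_C by 0.33 (exact permutation test, two-sided p = 0.135).

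Within the irradiated samples, miR-421 was compared with 4 technical measures after dose means were removed from the log2 counts, over 10 samples. With the ligation controls Pearson's r was 0.216 (exact permutation within dose, p = 0.560, adjusted 0.746 over the 4 relations) and Spearman's rho was 0.152 (exact permutation p = 0.697, adjusted 0.757). Without the 2 samples farthest from the median ligation level r was -0.569, so its sign rested on those samples, and within the doses its sign was positive at 2 Gy and negative at 9 Gy, with 5 samples each, too few for a correlation of their own. With the hybridisation controls r was 0.493 (exact permutation p = 0.172, adjusted 0.686) and rho 0.297 (exact permutation p = 0.431, adjusted 0.757), and r without the 2 farthest samples was -0.00985. With the mean of the negative controls r was 0.327 (exact permutation p = 0.367, adjusted 0.734) and rho 0.176 (exact permutation p = 0.638, adjusted 0.757), and r without the 2 farthest samples was -0.151. With the total of the other miRNA probes r was 0.0221 (exact permutation p = 0.965, adjusted 0.965) and rho -0.127 (exact permutation p = 0.757, adjusted 0.757), and r without the 2 farthest samples was 0.324. None of the 4 relations passed.

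The 5 probes with the pattern most like miR-421 were found by the root mean square difference of log2 scaled counts (plus 1), each centred on its own mean over the 14 samples. Over the 175 other tested probes the median difference was 1.27. Closest was miR-664, whose hairpin lies in a small nucleolar RNA, with a difference of 0.424 and mean counts of 5.25 in sham, 22 at 2 Gy and 34.6 at 9 Gy. miR-297c, of the Sfmbt2 cluster, followed at 0.445 with mean counts of 8.75, 61.0 and 88.2 in the same order of groups. miR-377, of the Dlk1-Dio3 cluster, was at 0.589 with mean counts of 10.3, 59.4 and 70.0. miR-2183 was at 0.598 with mean counts of 34.0, 108 and 186, and miR-30b, a member of the miR-30 family, at 0.610 with mean counts of 13.5, 41.2 and 55.0. On the same measure the ligation controls LIG_POS_A, LIG_POS_B and LIG_POS_C lay at 0.497, 0.528 and 0.605 from miR-421, within the range of these 5 miRNAs. The choice of these probes by likeness fixed their rise over sham, so no test is given for it.

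Of the other miRNAs reported to repress ATM, few were counted high enough to be tested. All 10 on the list were on the panel, but 7 of them, miR-18a, miR-26a, miR-26b, miR-27a, miR-100, miR-181a and the joint probe for miR-181b and miR-181d, fell below the mean of 10 counts. The 3 that were tested, miR-101a, miR-101b and miR-223, gave 0 calls at 2 Gy, at 9 Gy and between doses by edgeR's quasi-likelihood test, beside 14.8%, 17.0% and 0% of all probes, and with 3 probes nothing is read from these counts. Their median log2 fold change over sham was -0.27 at 2 Gy and 0.23 at 9 Gy, beside 0.05 and 0.01 for all 176 probes. The summed counts of all 10 ran from 58 to 95 in sham, 68 to 82 at 2 Gy and 92 to 106 at 9 Gy.

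Among miRNAs known as p53 targets or as regulators of damage response proteins, 8 of the 22 on the panel were tested. On the TMM scale 2 of them rose at 2 Gy and none fell, at 9 Gy 3 rose and none fell, and none passed between doses, beside 14.8%, 17.0% and 0% of all probes. The 3 at 9 Gy, miR-34b-5p, miR-15a and miR-155, had sham means under the filter of 10 counts. A member that low in sham could enter the test only with higher irradiated counts, so nothing is read from this split. The median member had a log2 fold change of 0.15 for 2 Gy and 0.64 for 9 Gy. miR-34b-5p, a direct p53 target, had mean counts of 7.0 in sham, 11.2 at 2 Gy and 19.8 at 9 Gy, with a log2 fold change of 1.29 at 9 Gy (edgeR adjusted p = 5.95e-05) and 0.81 at 2 Gy (edgeR adjusted p = 0.0730), where, with samples left out in turn, it passed only without 2 Gy replicate 3 (0.0306). The 9 Gy call was lost with total count scaling (edgeR adjusted p = 0.430). With the ligation controls as covariate it was also lost, at 0.63 ± 0.77 against 1.29 ± 0.26 without it (SE, edgeR adjusted p = 0.943). The ligation controls did not overlap between sham and irradiated samples, so this covariate can hardly be separated from the sham contrasts. It left 3 calls over all tested probes at each dose, which limits every loss given with it. Scaled to the ligation controls, its log2 fold changes were -2.19 at 2 Gy and -1.56 at 9 Gy. The other arm of that hairpin, miR-34b-3p, was not called, at -0.12 for 2 Gy (edgeR adjusted p = 0.903) and 0.17 for 9 Gy (edgeR adjusted p = 0.849). miR-34c, of the same transcript, was at 1 count in every sample, and miR-34a, with mean counts of 9.25 in sham, 5.2 at 2 Gy and 7 at 9 Gy, was not tested.

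miR-15a and miR-16, which share a primary transcript and limit cyclins and BCL2, were both called at 2 Gy. miR-15a had mean counts of 8.0 in sham, 13.2 at 2 Gy and 16.8 at 9 Gy, with log2 fold changes of 0.85 (edgeR adjusted p = 0.0306) and 0.87 (edgeR adjusted p = 0.0167). Its call was lost at 2 Gy without any of 5 samples, 2 Gy replicates 2 and 4 and sham replicates 1, 2 and 4 (edgeR adjusted p up to 0.141), and at 9 Gy without 9 Gy replicate 4 (0.0631) or sham replicate 1 (0.0826). It was also lost at each dose under 7 of 13 other settings, among them DESeq2 (adjusted p = 0.143 and 0.113 for 2 Gy and 9 Gy), limma-voom (0.220 and 0.130) and no filter (0.0897 and 0.0523), where its log2 fold changes stayed between 0.80 and 0.87. miR-16 had mean counts of 14.3, 45.0 and 36.4, with log2 fold changes of 1.81 at 2 Gy (edgeR adjusted p = 0.00459) and 1.17 at 9 Gy (edgeR adjusted p = 0.0619), where it passed without any of 5 samples, 2 Gy replicates 3, 4 and 5 and 9 Gy replicates 3 and 4. Its 9 Gy call also changed in 8 of 14 other settings, to a rise in 7 of them, such as DESeq2 (adjusted p = 0.0396) and hybridisation control scaling (edgeR adjusted p = 0.0197), and to a fall with ligation scaling (edgeR adjusted p = 2.47e-05). The 2 Gy call of miR-16 was lost with the ligation covariate (edgeR adjusted p = 0.914), where its log2 fold change was 1.52 ± 1.22 against 1.81 ± 0.40 without it (SE). Scaled to the ligation controls, both were lower than sham on the log2 scale, miR-15a at -2.20 and -2.04 and miR-16 at -1.22 and -1.74 for 2 Gy and 9 Gy. Red cells are rich in miR-16, and the summed counts of the red cell markers miR-451, miR-144 and miR-486 ran from 34 to 85 in sham, 29 to 284 at 2 Gy and 27 to 168 at 9 Gy. Their part in the level of miR-16 was not tested. miR-155, an immune cell miRNA, was at 1 count in 11 of 14 samples and at 44, 14 and 307 counts in 9 Gy replicates 1, 4 and 5. It reached the filter of 10 counts only through those 9 Gy samples and passed at 9 Gy (edgeR adjusted p = 0.0474). The call was lost in 10 of the 13 fits without 1 sample in which it was tested, and with limma-voom (adjusted p = 0.732). By edgeR it was also lost with no filter (adjusted p = 0.143), with only the 2 groups compared (0.169), with negative subtraction (0.0642) and with ligation scaling (0.154). Nothing is read from this call.

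The other Ftx miRNA on the panel had overlapping counts in all groups. Of the Ftx miRNAs listed, only miR-421 and miR-374 matched a probe, and the probe name does not say which miR-374 gene it reads. miR-374 was counted 14, 11, 13 and 5 times in sham replicates 1 to 4, 13, 5, 13, 9 and 14 times at 2 Gy and 8, 16, 10, 9 and 12 times at 9 Gy (replicates 1 to 5). The 3 groups overlapped fully, with means of 10.8, 10.8 and 11 counts, a few counts above the mean of the 7 negative controls. Its log2 fold change over sham was 0.15 at 2 Gy (edgeR adjusted p = 0.903) and -0.16 at 9 Gy (edgeR adjusted p = 0.856), signs that turned under other scalings. Under total count scaling it was called lower at 9 Gy (-1.18, edgeR adjusted p = 0.000776), where the median of all probes was -1.02. Under ligation scaling it was called lower at 2 Gy (-2.82, edgeR adjusted p = 3.91e-10) and at 9 Gy (-2.98, edgeR adjusted p = 4.67e-11), near the medians of all probes of -3.01 and -2.92. The difference between miR-421 and miR-374 was not tested.

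The other miRNAs encoded on the X chromosome were also set beside miR-421. RefSeq placed 517 of the 566 mouse probes, 70 of them on X, and 20 of those 70 were tested. Of the 19 other than miR-421, 1 rose and 0 fell at each dose, beside 14.8% and 17.0% of all probes called, with medians on the log2 scale of 0.00 for 2 Gy and -0.09 for 9 Gy. With 19 probes tested nothing is read from these counts. The 1 that rose at both doses was miR-450b-5p, with mean counts of 7.0 in sham, 22.2 at 2 Gy and 27.8 at 9 Gy. Its sham mean was under the filter of 10 counts, so it entered the test only through the irradiated samples where it was high. Its log2 fold change was 1.78 at 2 Gy (edgeR adjusted p = 0.00413) and 1.75 at 9 Gy (edgeR adjusted p = 0.00291). Both calls were lost with limma-voom (adjusted p = 0.0570 and 0.0670). They were also lost with the ligation covariate (edgeR adjusted p = 0.9995 and 0.982), which left 3 calls over all tested probes at each dose. Scaled to the ligation controls the value was -1.33 and -1.25.

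**Figure D4:**
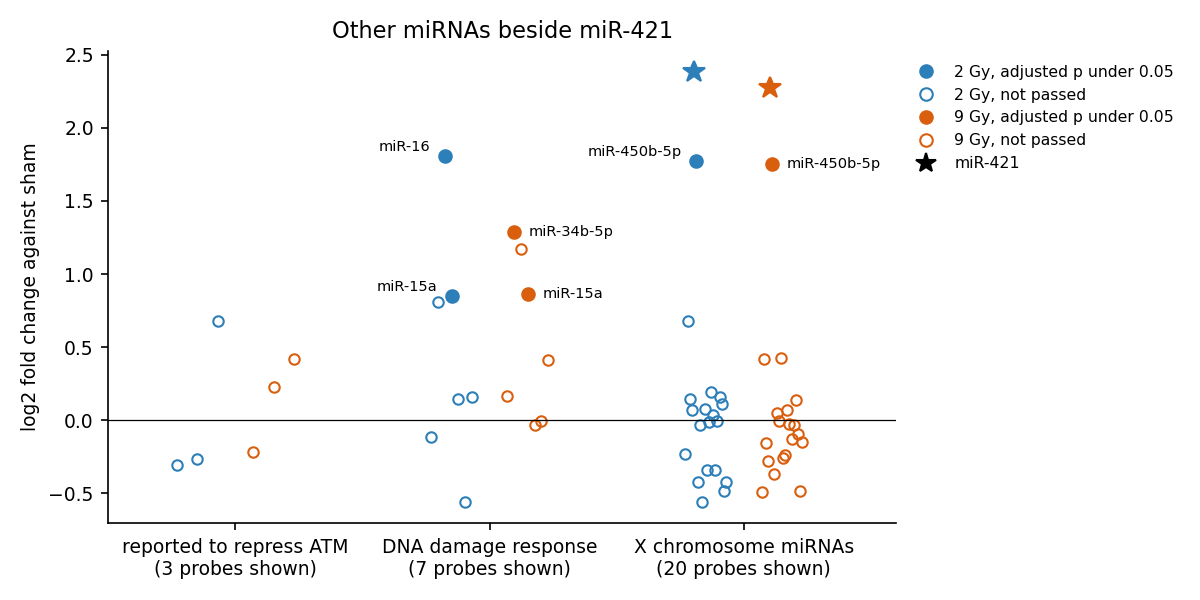
Log2 fold change over sham (vertical axis) of the tested probes in each list (horizontal axis), at 2 Gy (blue) and 9 Gy (orange). Filled circles passed an edgeR adjusted p of 0.05, open circles did not, stars are miR-421 at 2.38 and 2.27, shown without a test, and miR-155, at 1 count in 11 of 14 samples, is left out. The 3 ATM repressors lie between -0.30 and 0.68 and the open circles of the X chromosome between -0.56 and 0.68, with miR-450b-5p the only filled circle on X at each dose on this TMM scale, and every labelled probe had a negative value with ligation scaling.

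EVs in plasma come from many cells, and miRNAs that mark cell types were set beside miR-421. Over all tested probes 14.8% were called at 2 Gy and 17.0% at 9 Gy, and with 1 to 3 markers tested for a cell type nothing is read from their counts. Platelet markers (miR-223 and both arms of miR-126) summed to 12 to 21 counts in sham, 13 to 32 at 2 Gy and 20 to 37 at 9 Gy, and the 1 tested was not called. The liver marker miR-122 was at 1 to 6 counts in all samples and was not tested. The muscle markers miR-1, miR-133a, miR-133b and miR-206 summed to 29 to 45 counts in sham, 27 to 37 at 2 Gy and 32 to 45 at 9 Gy, with 0 of 1 tested called. Red cell markers had 0 of 2 tested called at either dose. On the list labelled lymphocytes, whose miRNAs are not specific to these cells, 3 were tested and miR-142-5p fell at both doses. Its log2 fold change was -0.63 at 2 Gy (edgeR adjusted p = 3.35e-08) and -0.77 at 9 Gy (edgeR adjusted p = 8.34e-11). These calls were lost with the negative control mean subtracted (edgeR adjusted p = 0.258 and 0.369) and, at 9 Gy, with hybridisation control scaling (edgeR adjusted p = 0.0563). They were also lost with the ligation covariate (edgeR adjusted p = 0.914 and 0.850), which left 3 calls over all tested probes at each dose. The third, miR-150, was not called, at 0.11 for 2 Gy (edgeR adjusted p = 0.903) and -0.09 for 9 Gy (edgeR adjusted p = 0.910), and miR-142-3p, the other arm of the miR-142 hairpin, was not tested, with mean counts of 7 in sham, 5.8 at 2 Gy and 7.6 at 9 Gy. miR-155 was called higher at 9 Gy, a call lost in 10 of 13 fits without 1 sample and with no filter (edgeR adjusted p = 0.143). The 4 on the list summed to 864 to 1049 counts in sham, 499 to 659 at 2 Gy and 577 to 1009 at 9 Gy, where miR-155 gave 307 counts in replicate 5. The part of any of these cell types in the level of miR-421 was not tested.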

How the data were processed

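EV RNA was isolated by the authors with the miRNeasy kit, run on the nCounter mouse miRNA panel and analysed in nSolver 4.0. The deposited values are whole barcode counts per probe, with control probes present and different between samples, so scaling to the controls or background subtraction is not apparent. No value was below 1, so a floor at 1 may have been set by the authors or their software. Groups and replicate numbers are those of the labels.

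Library size was the total of the 599 miRNA probes. TMM factors were computed over all of them, probes with a mean under 10 counts were then left out, and 176 entered the robust quasi-likelihood fit (edgeR 4.0.16, R 4.3.3), which held all 3 groups and no block. Tests were two-sided and adjusted by Benjamini-Hochberg over the 176 probes, at a threshold of 0.05. The filter took the mean over all samples. Probes with a sham mean under 10 thus entered only through irradiated samples, which favours calls of a rise over sham. limma 3.58.1, DESeq2 1.42.0 and Python 3.11.15 were used for alternatives, exact tests and plots. The model was tested on simulated data. Count precision is set by 4781 to 20150 miRNA counts per sample.

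miR-421, the lists and the tests were chosen with earlier results of these data known. The rule for named miRNAs was miR-421, its host transcript and seed relatives, the 5 most alike probes, and list members past the threshold. The ligation control covariate and the permutation test of unscaled counts were added after the data were seen. Probes keep the panel's names, and sequences and positions are from RefSeq (GRCm38.p6).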

Additional observations from a re-analysis of the deposited data

How the results depend on the processing

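For miR-421 at 2 Gy and 9 Gy over sham, the log2 fold change was 1.67 and 1.28 with total count scaling. With ligation scaling it reversed to -0.57 and -0.52. It was 4.30 and 4.52 with the mean of all 8 negative controls subtracted, which put every sham count at the floor of 1. With a ligation control covariate (an alternative chosen after seeing the data) it was 1.56 ± 0.73 and 1.40 ± 0.77 (SE). Without the covariate it was 2.38 ± 0.27 and 2.27 ± 0.27 (SE). Leaving out 1 sample gave 2.11 to 2.56 and 2.00 to 2.45. With the replicate block, it was 2.43, 2.32 and, for 9 Gy versus 2 Gy, -0.11. Same-numbered samples correlated at -0.0808 to 0.176 over 13 pairs, the highest for replicate 3 of 9 Gy and 2 Gy. Counting error is large at low counts, so these values cannot show whether the numbers pair samples. Filtering at a mean of 30 counts removed miR-421.

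For 9 Gy versus 2 Gy the sign turned with hybridisation scaling (0.13), ligation scaling (0.049), negative subtraction (0.22) and unscaled counts (0.22), and leave-one-out gave -0.17 to -0.04. The ratio to the ligation controls was -0.00942 with LIG_POS_A alone and -0.0848 to 0.115 in leave-one-out. The correlation with the ligation controls was -0.569 without the 2 farthest samples and -0.253 (without 2 Gy replicate 1) to 0.415 in leave-one-out.

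Calls at 2 Gy (26, 23 of them higher) became 9 with the filter of 30, 106 with total count (12 higher), 49 with the 100 highest probes (15 higher), 169 with ligation scaling (2 higher), 14 with negative subtraction, 17 with limma-voom and 3 with the covariate. At 9 Gy (30, 28 of them higher) they became 10, 145 (15 higher), 75 (21 higher) and 167 (2 higher) with the first 4 of these and 3 with the covariate. Between doses (0) they became 1 with the filter, 7 with total count, 12 with hybridisation scaling, 3 with the replicate block, 5 with negative subtraction, 1 with limma-voom, 1 with DESeq2 and 0 to 3 in leave-one-out. The cause was not tested.

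Ligation scaling reversed named miRNAs at 2 Gy and 9 Gy: miR-34b-5p (-2.19, -1.56), miR-15a (-2.20, -2.04), miR-16 (-1.22, -1.74), miR-450b-5p (-1.33, -1.25), miR-664 (-0.76, -0.29), miR-377 (-0.48, -0.37), miR-2183 (-1.30, -0.69), miR-30b (-1.40, -1.15) and, at 2 Gy, miR-297c (-0.11). The covariate turned miR-450b-5p to -0.20 and -0.37, and total count scaling turned miR-15a to -0.16 at 9 Gy. miR-374 turned at 2 Gy with total count (-0.57), the 100 highest probes (-0.28), ligation scaling (-2.82) and the covariate (-0.32), and at 9 Gy with hybridisation scaling (0.050) and negative subtraction (0.44). The replicate block turned the call of miR-16 at 9 Gy (1.06, edgeR adjusted p = 0.00292) and no other call of miR-15a, miR-34b-5p, miR-374, miR-450b-5p, miR-142-5p or miR-155. Sham counts at the level of the negative controls limit the folds of miR-421 over sham.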
